A study of Mus musculus with 2 samples.

Results

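The cells described here are monocytes of mouse tumours that carry Ly6c2 and Plac8 RNA, 354 of 19476 cells kept from 2 droplet libraries of CD45-selected tumour cells, CEP and Vehicle. The CEP library came from tumours of the cepharanthine group and held 164 of these monocytes among 9544 kept cells. The Vehicle library, whose title is spelled "Vehide", came from the vehicle group and held 190 among 9932. Cepharanthine is an alkaloid from Stephania plants, and the series title sets it against a pathway from protein kinase C zeta and NF-kB to the DNA-damage enzyme PARP1. Tumours were digested, leukocytes were enriched with an antibody to CD45, and RNA was counted at its 3' end with unique molecular identifiers (UMIs), so that 1 UMI stands for 1 captured RNA molecule. The design names 5 biological replicates a group, but each group is 1 library and its cells are not mapped to animals. Tumour model, strain, age, dose and schedule are not given in the sources used here.

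Members were chosen by raw UMIs. A monocyte had at least 1 UMI of Ly6c2, at least 2 of Plac8 and at least 3 of Lyz2. Its C1qa, C1qb and C1qc UMIs made up under 0.2% of all its UMIs, which sets it apart from C1q macrophages. It had under 2 UMIs of Gpnmb, at most 1 of Csf3r and Cxcr2 together, no Cd3d, Cd3e, Cd3g or Flt3 UMI, and under 5 of Krt8 and Krt18. The levels of these genes chose the members, so they are a description and not a finding. The same libraries held 4107 CEP and 4675 Vehicle C1q macrophages (C1q at or above the limit, no limit on Ly6c2, Plac8 or Gpnmb, the others as for monocytes) and 1173 CEP and 1546 Vehicle neutrophils (at least 2 UMIs of Csf3r and Cxcr2), which serve for comparison. The 202 CEP and 324 Vehicle T cells (at least 2 UMIs of Cd3d, Cd3e and Cd3g) serve as background for shares of cells with a UMI.

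Classical monocytes are made in the bone marrow, enter the blood with the help of the chemokine receptor CCR2 and carry the surface protein Ly6C. In inflamed tissue and in tumours they become macrophages or antigen-presenting cells within days, losing Ly6C and gaining MHC class II or complement C1q. They respond strongly to type I interferon, which binds its receptor, activates a transcription factor complex that includes IRF9, and switches on genes whose promoters carry the interferon-stimulated response element.

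The whole CEP library held 88721774 UMIs and the Vehicle library 81208647. The monocytes accounted for 1056991 UMIs in CEP and 1331625 in Vehicle. Their median depth was 5725.5 UMIs (834 to 22032) and 1941 genes per CEP cell, and 6489 UMIs (1690 to 21359) and 2080 genes per Vehicle cell. A median of 0.923% of UMIs in CEP monocytes and 0.810% in Vehicle monocytes was mitochondrial. The libraries shared 136 cell barcodes. Of these, 1 belonged to a CEP monocyte and 1 to a Vehicle monocyte, and none was called a monocyte in both. With 1 library a group there was no test between conditions. Every interval below is a 95% interval that covers counting error only, and no value carries a spread between animals. Intervals of levels and of their ratios treat UMIs as independent, so they are too narrow where few cells hold many of a gene's UMIs.

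The label was checked against markers that the rule did not use. Thbs1, which encodes the matrix protein thrombospondin 1, was at 908 UMIs per 1000000 UMIs of these cells (CPM) in CEP monocytes and 1006 CPM in Vehicle monocytes. C1q macrophages had 61.2 CPM in CEP and 56.1 CPM in Vehicle. Of CEP monocytes 57.9% and of Vehicle monocytes 55.3% had a Thbs1 UMI (60% and 56.8% with each cell thinned to 3000 UMIs). In T cells, which should lack Thbs1, the shares were 4.95% in CEP and 3.70% in Vehicle at median depths of 3403 and 3021.5 UMIs. Ccr2 was at 450 CPM in CEP and 527 CPM in Vehicle monocytes, against 94.8 CPM in CEP and 119 CPM in Vehicle macrophages. It was seen in 81.7% of CEP and 89.5% of Vehicle monocytes (84.7% and 90.3% after thinning), and in 29.2% of CEP and 27.5% of Vehicle T cells. The T cells were not a clean background. In Vehicle they held the neutrophil genes Ngp at 1484 CPM and S100a9 at 3218 CPM, against 0 and 424 CPM in CEP. Whether a UMI seen in T cells, here or below, was their own RNA was not tested. Thbs1 and Ccr2 thus stood well above the other classes in both libraries. The rule's own genes were at 598 CPM (CEP) and 533 CPM (Vehicle) for Ly6c2 (chr15:75108158-75111970, minus strand), and at 2641 CPM (CEP) and 3062 CPM (Vehicle) for Plac8 (chr5:100553725-100572245, minus strand). Gene positions are from GENCODE on mouse build mm10.

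Other genes of classical monocytes followed the same pattern. Of 24 classical monocyte genes measured, 23 passed the filter of 50 UMIs over both libraries, and 22 of those were at least 1.5-fold higher in monocytes than in C1q macrophages in each library. Over all 4999 genes that passed, 845 genes (16.9%) met that limit. The exception was Fn1 (fibronectin), at 1598 CPM in CEP and 1464 CPM in Vehicle monocytes, against 2011 CPM in CEP and 1680 CPM in Vehicle macrophages. Any gene of the rule on the classical list was bound to lean this way, since it chose the members. No count without such genes is given. Ly6c1, a near copy of Ly6c2, was at 740 CPM in CEP and 748 CPM in Vehicle monocytes, and at only 11.9 CPM in CEP and 5.40 CPM in Vehicle macrophages. Of 90-base windows in the last 400 bases of Ly6c2 transcripts, 17.4% also occur in Ly6c1 transcripts, so a part of their UMIs may be split between these genes. Cells that met every other limit but had no Ly6c2 UMI held Ly6c1 at 78.0 CPM in CEP and 65.2 CPM in Vehicle. The Ly6c1 level thus went with that of a gene the rule used, and is not an independent check of the label. S100a4, a calcium-binding protein of migrating cells, was at 961 CPM in CEP and 882 CPM in Vehicle monocytes, against 29.2 CPM in CEP and 27.1 CPM in Vehicle macrophages. Vcan, the proteoglycan versican, was at 134 CPM in CEP and 151 CPM in Vehicle monocytes, against 4.93 CPM in CEP and 4.94 CPM in Vehicle macrophages. A Vcan UMI was present in 36.6% of CEP and 35.8% of Vehicle monocytes (38.7% and 36.8% after thinning), and in 2.97% of CEP and 3.40% of Vehicle T cells.

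The 20 genes highest over C1q macrophages, after those of the rule, grouped into a few kinds. Migration and surface genes included Ly6c1, Sdc1 (syndecan 1), Met (the receptor of hepatocyte growth factor), Ltb4r1 (the leukotriene B4 receptor), Vcan and Thbs1. Cytoskeletal and signalling genes were Tiam1, Rhov and Ahnak. Secreted or defence genes were Slpi, Hp (haptoglobin), Chil3, Lrg1 and Inhba (a subunit of activin). Others were S100a4, S100a6, Dmkn, Mefv and B3gnt5. Chil3, a chitinase-like protein of myeloid cells, was at 87.0 CPM in CEP and 66.8 CPM in Vehicle monocytes, against 2.38 CPM in CEP and 0.884 CPM in Vehicle macrophages. Hp was at 404 CPM in CEP and 460 CPM in Vehicle monocytes, against 23.3 CPM in CEP and 19.3 CPM in Vehicle macrophages. Neutrophils had still more Hp, at 1299 CPM in CEP and 1440.1 CPM in Vehicle, and Lrg1, Rhov and S100a6 were also higher in neutrophils than in monocytes. Dmkn should be read with care, since 27 of its 175 Vehicle UMIs came from 1 cell.

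Set against neutrophils, the leading genes were Ms4a4c, Thbs1, Ly6c1, Tppp3, Fcgr1 and Atp2b4, followed by Ifi44, Ms4a6c, Ms4a6b, Sdc1, Pid1, S100a4, Ifi209, Ccr2, Ifi203, Emp1, Ifi204, Ms4a4a, Nt5dc2 and Ahnak. Ms4a4c, a membrane protein of the Ms4a family, was at 457 CPM in CEP and 452 CPM in Vehicle monocytes, against 31.9 CPM in CEP and 22.8 CPM in Vehicle neutrophils. Fcgr1, the high-affinity Fc receptor CD64, was at 530 CPM in CEP and 487 CPM in Vehicle monocytes, against 41.7 CPM in CEP and 42.8 CPM in Vehicle neutrophils. Ifi44, Ifi203, Ifi204 and Ifi209 are interferon-induced genes. Over neutrophils 2175 of the 4999 genes (43.5%) were at least 1.5-fold higher in both libraries and 493 (9.86%) at least 1.5-fold lower, so this contrast is broad.

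Genes of macrophage maturation were mostly low. Of 24 measured, 19 passed the filter, and 15 of those were at least 1.5-fold lower in monocytes than in C1q macrophages in both libraries. Over all 4999 genes, 413 (8.26%) were. Any C1q gene on this list was lower through the rule, and no count without such genes is given. Apoe, a lipid carrier, was at 2307 CPM in CEP and 3048 CPM in Vehicle monocytes, against 15512 CPM in CEP and 14924 CPM in Vehicle macrophages. Genes of non-classical (patrolling) monocytes ran from abundant to absent. Of 20 measured, 11 passed the filter. Cebpb, a transcription factor also used by other myeloid cells, was at 4605 CPM in CEP and 4596 CPM in Vehicle. An Nr4a1 UMI was present in 66.5% of CEP and 71.1% of Vehicle monocytes and a Gngt2 UMI in 67.7% of CEP and 70% of Vehicle monocytes. Ace was at 36.0 CPM in CEP and 15.8 CPM in Vehicle monocytes, against 0.956 CPM in CEP and 0.615 CPM in Vehicle macrophages. Cd300e had no UMI in either library, Treml4 had 9 UMIs in CEP and 11 in Vehicle, and Cx3cr1 was at 32.2 CPM in CEP and 20.3 CPM in Vehicle. The zero of Cd300e allows up to 3 UMIs in either library.

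**Figure D1:**
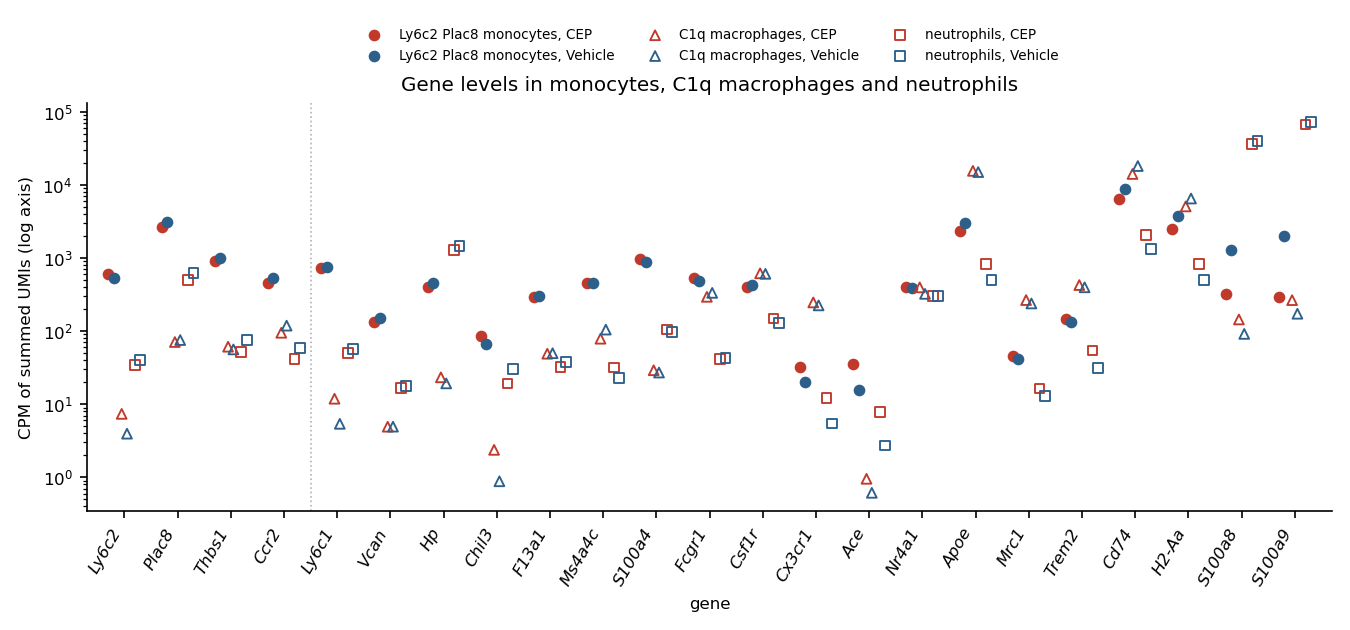
Level of 23 genes in CPM of summed UMIs (log axis) in monocytes (filled), C1q macrophages (triangles) and neutrophils (squares) of the CEP (red) and Vehicle (blue) libraries. The 4 markers left of the dotted line include Ly6c2 and Plac8, which the rule used. Ly6c1, whose level goes with that of Ly6c2, stands at 740 CPM in CEP and 748 CPM in Vehicle monocytes, far above both other classes. Apoe is highest in macrophages, and S100a8 and S100a9 are highest in neutrophils.

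The edges of the rule were thin in places. Cells with exactly 1 Ly6c2 UMI, just inside, numbered 57 in CEP and 59 in Vehicle. Cells that met every other limit but had no Ly6c2 UMI numbered 185 in CEP and 265 in Vehicle, more than all members. Just inside the Ly6c2 limit, Ccr2 was at 408 CPM in CEP and 453 CPM in Vehicle, and just outside it was at 308 CPM in CEP and 378 CPM in Vehicle. H2-Ab1, an MHC class II chain, was at 1621 CPM in CEP and 2265 CPM in Vehicle just inside, and at 4280 CPM in CEP and 4194 CPM in Vehicle just outside. The cells left out were thus close to the members in Ccr2 but richer in MHC class II. At the Plac8 limit, 11 CEP and 4 Vehicle cells lay just inside, and 4 CEP and 6 Vehicle cells just outside. At the C1q limit, 16 CEP and 12 Vehicle cells held 0.1 to 0.2%, and 14 CEP and 6 Vehicle cells held 0.2 to 0.3%.

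Monocytes made up a like share of both libraries. They were 1.72% (1.47 to 2.0%) of kept CEP cells and 1.91% (1.65 to 2.20%) of kept Vehicle cells, a ratio of 0.898 (0.730 to 1.1). Of monocytes and C1q macrophages together they were 3.84% (3.28 to 4.46%) in CEP and 3.91% (3.38 to 4.49%) in Vehicle, a ratio of 0.983 (0.801 to 1.21). Keratin-rich cells were more numerous in the CEP library. With the denominator limited to the 8564 CEP and 9774 Vehicle cells under 5 UMIs of Krt8 and Krt18, the ratio was 0.985 (0.801 to 1.21). With every cell thinned to 3000 UMIs before the rule was applied, 107 of 6463 CEP cells (1.66%) and 138 of 6521 Vehicle cells (2.12%) were monocytes, a ratio of 0.782 (0.609 to 1.0). Each of these intervals held a ratio of 1, so no difference in the share of monocytes beyond counting error was seen. With 1 library a group, they cannot show whether the share differs between conditions. Over these different limits and denominators the intervals reach from 0.609 to 1.21 times the share of Vehicle.

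The monocytes of both libraries spanned a wide range of MHC class II RNA. The 4 genes H2-Aa, H2-Ab1, H2-Eb1 and Cd74 took a median of 0.145% of a CEP cell's UMIs and 0.470% of a Vehicle cell's, from 0% in the lowest cell of each library to 9.45% in the highest CEP cell and 10.6% in the highest Vehicle cell. Cells of both libraries were cut into 3 ranges of this share, at 0.0509% and 1.24%, which are ranges of a continuous measure and not cell types. The low, middle and high ranges held 59, 59 and 46 CEP cells and 59, 59 and 72 Vehicle cells.

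Several genes typical of classical monocytes ran opposite to MHC class II in both libraries, and others did not. F13a1, a subunit of coagulation factor XIII, was at 517, 230 and 95.3 CPM from the low to the high range in CEP, and at 498, 345 and 101 CPM in Vehicle. Ifitm6 was at 332, 156 and 46.1 CPM in CEP and at 428, 184 and 82.5 CPM in Vehicle. These levels dropped at every step in both libraries. Vcan was at 182, 132 and 83.0 CPM in CEP and at 284, 121 and 66.4 CPM in Vehicle, Hp at 558, 450 and 178 CPM in CEP and at 618, 546 and 256 CPM in Vehicle, and S100a4 at 1299, 990 and 548 CPM in CEP and at 1118, 1027 and 561 CPM in Vehicle. Other genes that went down along the range in both libraries were Mgst1, Smpdl3a, Wfdc17, Anxa1, Saa3 and Mrpl33. Ly6c1 was at 819, 691 and 704 CPM in CEP and at 508, 890 and 825 CPM in Vehicle, and Ly6c2 at 656, 587 and 544 CPM in CEP and at 418, 612 and 561 CPM in Vehicle. These levels were lower in the high than in the low range of CEP and higher in the high than in the low range of Vehicle. Plac8 was at 2774, 2831 and 2279 CPM in CEP and at 3297, 2934 and 2976 CPM in Vehicle.

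Other genes followed MHC class II upward. Ciita, the master regulator of MHC class II genes, was at 5.44, 16.5 and 52.3 CPM in CEP and at 4.86, 7.09 and 60.4 CPM in Vehicle. Itgax, the integrin CD11c of dendritic cells and tissue macrophages, was at 54.4, 104 and 132 CPM in CEP and at 9.73, 68.5 and 149 CPM in Vehicle. Cxcl16, a membrane-bound chemokine, was at 62.6 CPM in the low and 683 CPM in the high range of CEP, and at 65.6 CPM in the low and 648 CPM in the high range of Vehicle. Bcl2a1b, Il1r2, Cfb and Il1a followed in the same way. Ccr2 was nearly flat, at 444, 420 and 492 CPM in CEP and at 503, 522 and 551 CPM in Vehicle. Apoe was at 1538, 2452 and 3011 CPM in CEP and at 1831, 1852 and 5075 CPM in Vehicle, so its form along the range differed between the libraries.

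**Figure D2:**
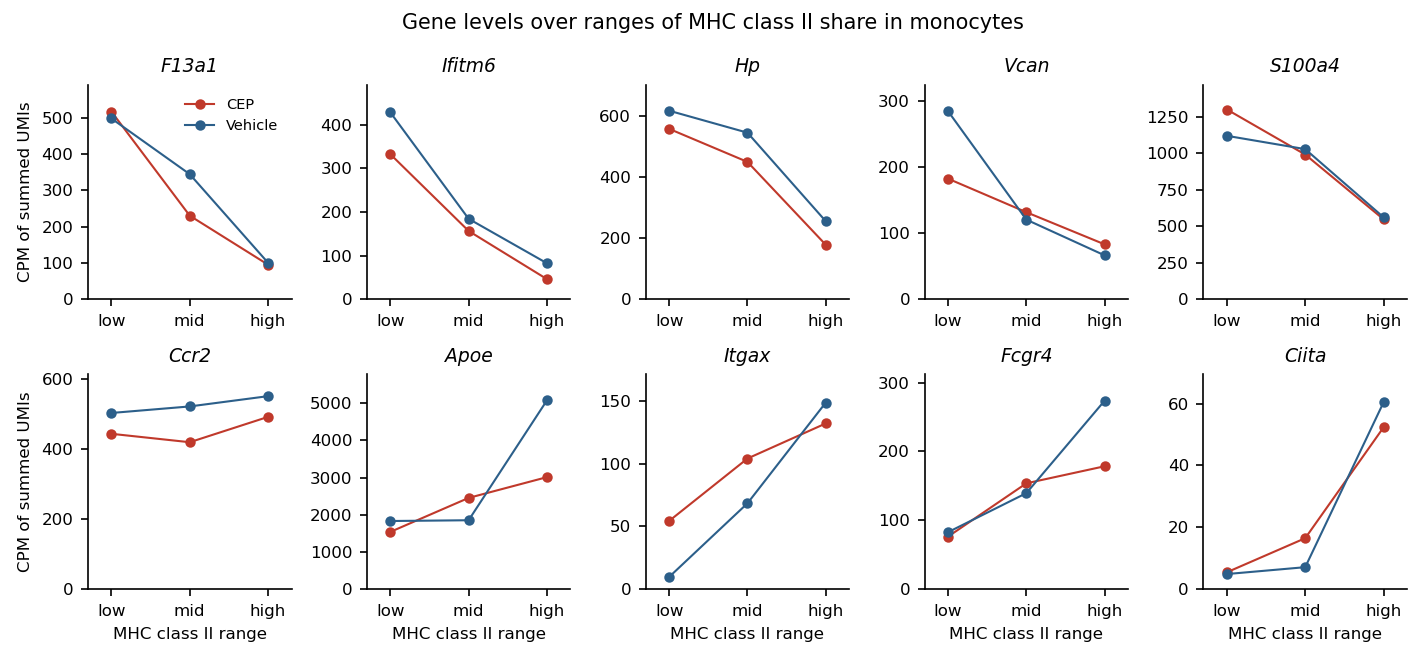
Level of 10 genes (CPM of summed UMIs, axes from 0) in CEP (red) and Vehicle (blue) monocytes of the low, middle and high range of MHC class II share. F13a1, Ifitm6, Hp, Vcan and S100a4 go down along the range in both libraries (F13a1 at 517 to 95.3 CPM in CEP and 498 to 101 CPM in Vehicle), Ccr2 is nearly flat, and Itgax, Fcgr4 and Ciita go up.

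Along the Ly6c2 level itself, cells with 1, 2 to 4 and at least 5 UMIs numbered 57, 60 and 47 in CEP and 59, 79 and 52 in Vehicle. Ly6c1 was at 248, 557 and 1504 CPM in CEP and at 172, 711 and 1351 CPM in Vehicle. Ly6a (Sca-1), of the same gene family and induced by interferon, was at 30.3 CPM in the lowest and 261 CPM in the highest range of CEP, and at 45.5 CPM in the lowest and 254 CPM in the highest range of Vehicle. Irf7 was at 380 CPM in the lowest and 924 CPM in the highest range of CEP, and at 202 CPM in the lowest and 483 CPM in the highest range of Vehicle. Mmp12, a metalloproteinase of macrophages, went the other way, at 571 CPM in the lowest and 31.0 CPM in the highest range of CEP. In Vehicle it was at 283 CPM in the lowest and 68.3 CPM in the highest range. In CEP 154 of its 308 UMIs came from 1 cell, which lay in the lowest range and raised the CEP level there. The size of the CEP fall without that cell is not given. The richest Vehicle cell held 30 of 161 Mmp12 UMIs. Spp1 (osteopontin) and Hmox1 (haem oxygenase 1) went down in both libraries as well.

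C1q RNA was absent from 85 CEP and 93 Vehicle monocytes. A further 63 CEP and 85 Vehicle cells held under 0.1%, and 16 CEP and 12 Vehicle cells 0.1 to under 0.2%. Ccl24 (eotaxin 2) was lower at high C1q in both libraries, at 1309 CPM with no C1q and 237 CPM in the highest C1q range of CEP, and at 920 CPM with no C1q and 152 CPM in the highest C1q range of Vehicle. Apoe was at 1907 CPM with no C1q and 4262 CPM in the highest range of CEP, and at 2896 CPM and 4669 CPM in the same ranges of Vehicle. The highest range rests on few cells.

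Between the libraries, most genes of the monocytes differed little. Of 4999 genes, 196 (3.92%) were at least 1.5-fold higher in CEP and 221 (4.42%) at least 1.5-fold lower. The median log2 ratio over all of them was -0.01. With the cell richest in each gene left out of each library, 198 genes were past 1.5-fold higher and 257 past 1.5-fold lower, and 172 (3.44%) and 208 (4.16%) were past the limit both with and without those cells. Ratios of genes near 50 UMIs have wide counting intervals, and among genes with at least 200 UMIs 25 were past 1.5-fold higher and 26 lower.

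**Figure D3:**
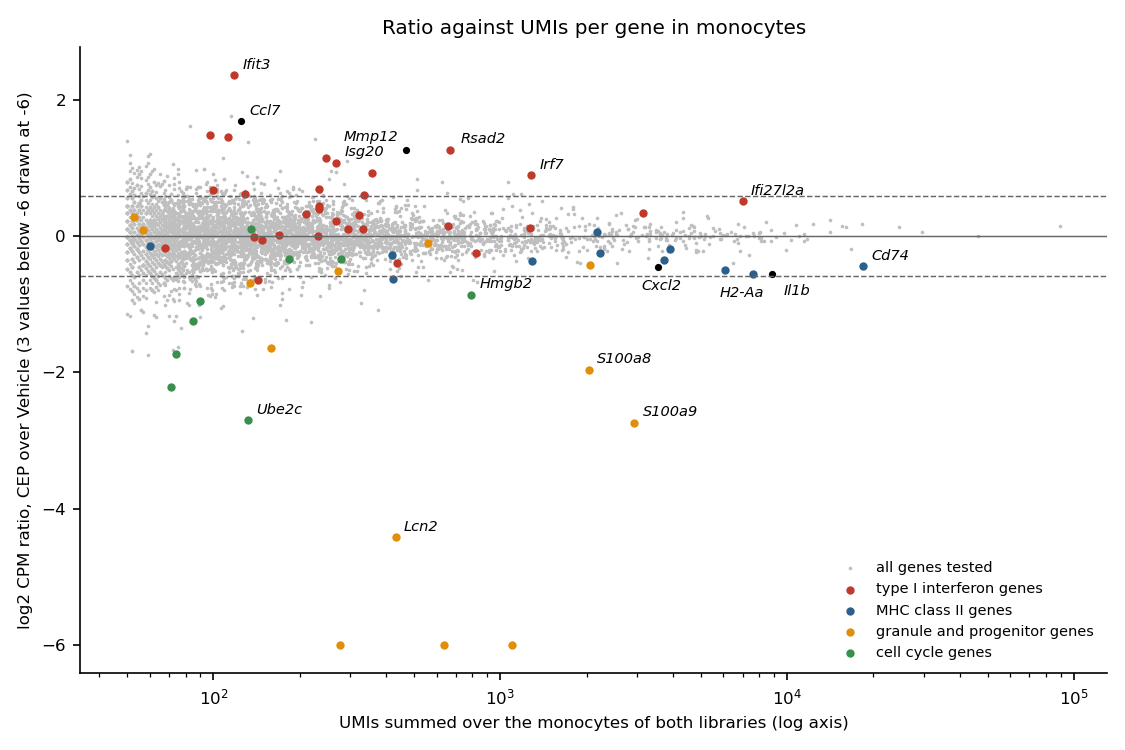
Log2 CPM ratio of CEP over Vehicle against the UMIs of both libraries (log axis) for 4999 genes in monocytes, with 1.5-fold either way dashed. Type I interferon genes (red) lie mostly above 0, from Dhx58 at -0.64 to Ifit3 at 2.36, and MHC class II genes (blue) mostly below 0. Granule genes (orange) reach far below, on the UMIs of 1 Vehicle cell, and 3 of them are drawn at -6.

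Type I interferon genes were mostly higher in CEP monocytes. They encode antiviral proteins and are switched on by interferon alpha and beta. Of 33 measured, 31 passed the filter; 24 had a ratio above 0 and 7 below. Past 1.5-fold, 12 were higher in CEP and 1 was lower, where 3.92% and 4.42% of all genes were. The list's median log2 ratio was 0.34, and 0.36 without each gene's richest cell. The same list had a median of -0.22 in C1q macrophages and -0.12 in neutrophils of the same libraries. Whether the classes differ was not tested.

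The Ifit genes, which bind viral RNA and block its translation, were among the genes with the largest ratios. Ifit3 (chr19:34583531-34588731, plus strand, mm10) was at 89.9 CPM (72.7 to 110) in CEP monocytes and 17.3 CPM (10.9 to 25.9) in Vehicle monocytes, from 95 and 23 UMIs. Its log2 ratio was 2.36 (1.71 to 3.10), the largest of all genes tested. Of CEP monocytes 20.1% and of Vehicle monocytes 8.95% had an Ifit3 UMI (20% and 9.19% after thinning), as did 5.45% of CEP and 4.32% of Vehicle T cells. The difference thus lay both in how many cells held the RNA and in how much they held. Ifit1 (chr19:34640871-34650009) was at 63.4 CPM in CEP and 22.5 CPM in Vehicle (log2 ratio 1.48, interval 0.85 to 2.16). Ifit2 (chr19:34550694-34576419) was at 149 CPM in CEP and 66.8 CPM in Vehicle monocytes; the log2 ratio was 1.15 (0.77 to 1.54). Ifit3b, a near copy of Ifit3, did not pass the filter, with 22 UMIs in CEP and 2 in Vehicle. Of 90-base windows in the last 400 bases of Ifit3 transcripts, 8.68% occur in Ifit3b, and of the 311 such windows of Ifit3b 0 occur in Ifit3, so that UMIs of Ifit3 may be partly split.

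Rsad2 (chr12:26442746-26456452, minus strand; viperin, which makes a chain-terminating nucleotide that stops viral RNA synthesis) had more counts. It was at 414 CPM (376 to 455) in CEP and 172 CPM (150 to 196) in Vehicle monocytes, a log2 ratio of 1.27 (1.03 to 1.51), with 438 and 229 UMIs. In C1q macrophages it was at 43.7 CPM in CEP and 65.8 CPM in Vehicle (log2 ratio -0.59). The share of cells with an Rsad2 UMI was closer, at 28.7% of CEP and 22.1% of Vehicle monocytes (28.0% and 22.7% after thinning), against 3.47% of CEP and 5.56% of Vehicle T cells. Cmpk2, its neighbour on chromosome 12 and a nucleotide kinase, was at 72.8 CPM in CEP and 26.3 CPM in Vehicle monocytes; the log2 ratio was 1.46 (0.88 to 2.09).

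Irf7 (chr7:141262706-141266481, minus strand), the transcription factor that amplifies the interferon response, was at 725 CPM (674 to 778) in CEP and 390 CPM (357 to 425) in Vehicle monocytes, a log2 ratio of 0.89 (0.73 to 1.06). In macrophages its ratio was -0.08. Isg20, a nuclease that degrades viral RNA, was at 159 CPM in CEP and 75.1 CPM in Vehicle (log2 1.08). Slfn4, a Schlafen protein of myeloid cells, was at 203 CPM in CEP and 107 CPM in Vehicle (log2 0.92). The remaining genes past 1.5-fold were Phf11b (0.69), Usp18 (0.68, a protease that removes ISG15), Ifi205 (0.62) and Oasl1 (0.60).

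The most counted genes of the list differed less. Isg15, a ubiquitin-like protein, was at 1494 CPM (1421 to 1569) in CEP and 1184 CPM (1126 to 1243) in Vehicle, and its log2 ratio was 0.34 (0.23 to 0.44). Ifi27l2a was at 3518 CPM in CEP and 2469 CPM in Vehicle monocytes; the log2 ratio was 0.51 (0.44 to 0.58). Stat2, Xaf1 and Ddx58 had ratios of 0.01, 0.00 and -0.02. On the lower side, Dhx58 (the RNA sensor LGP2) was at 45.4 CPM in CEP and 71.3 CPM in Vehicle (-0.64), Rtp4 at 155 CPM in CEP and 204 CPM in Vehicle (-0.39), and Zbp1 at 310 CPM in CEP and 370 CPM in Vehicle (-0.25). The list was therefore not shifted as a whole.

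**Figure D4:**
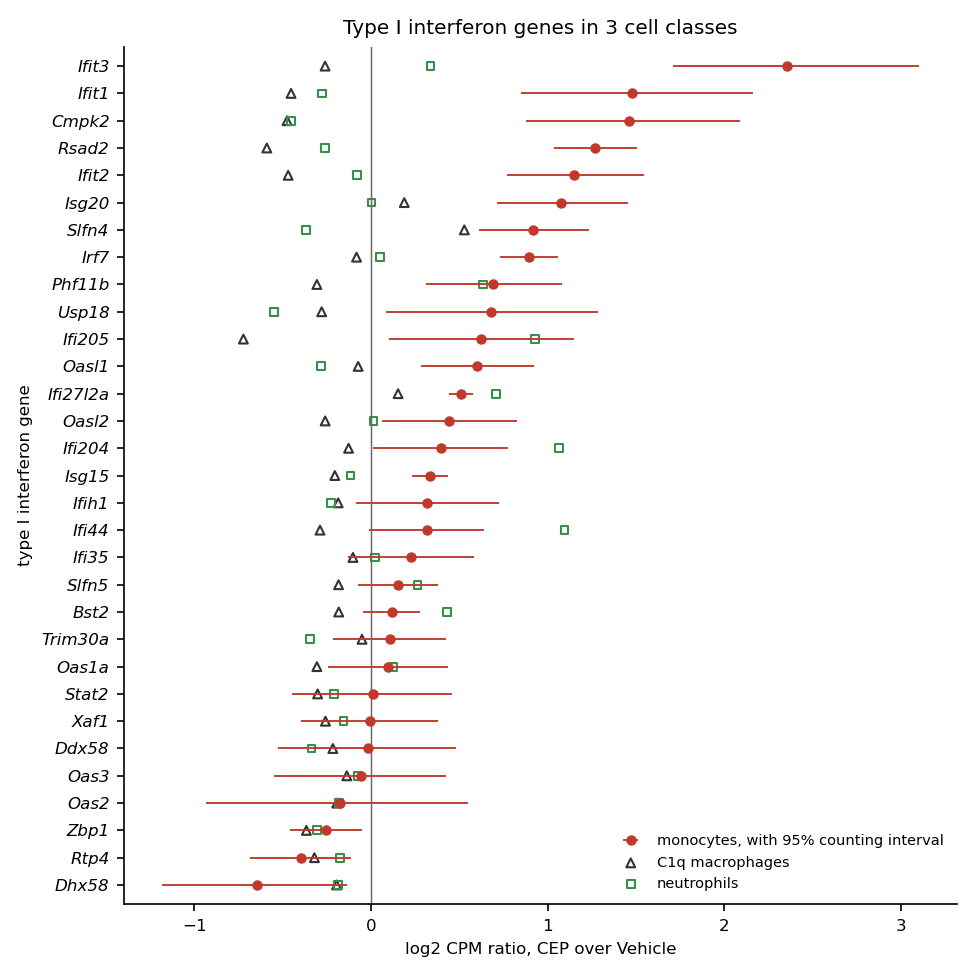
Log2 CPM ratio of CEP over Vehicle for the 31 type I interferon genes tested, in monocytes (red, with 95% counting intervals), C1q macrophages (triangles) and neutrophils (squares). The 8 genes at the top, from Ifit3 (2.36) to Irf7 (0.89), have monocyte intervals above 0, and the macrophage ratios of 6 of them are below 0 (-0.59 for Rsad2).

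The promoters of 3 of the genes with the largest ratios are printed to show the interferon-stimulated response elements they carry. They are RefSeq sequences of build GRCm38.p6, from 250 bases before to 50 bases after the gene's start, on the strand of the gene. Capitals mark matches to GAAANNGAAA, or to TTTCNNTTTC on the other strand, the core of that element. Ifit3 lies at chr19:34583279-34583578 (plus strand), with matches that begin 156 and 122 bases before the start. Ifit1 lies at chr19:34640639-34640938 (plus strand), with matches at 104 and 85 bases before. Rsad2 lies at chr12:26456403-26456702 (minus strand), with 1 match at 120 bases before.
Ifit3: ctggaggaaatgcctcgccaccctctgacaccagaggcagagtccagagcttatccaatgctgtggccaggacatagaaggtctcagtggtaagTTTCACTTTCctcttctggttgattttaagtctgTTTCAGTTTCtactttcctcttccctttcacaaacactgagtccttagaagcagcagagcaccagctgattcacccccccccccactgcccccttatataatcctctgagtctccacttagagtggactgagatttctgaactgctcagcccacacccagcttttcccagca
Ifit1: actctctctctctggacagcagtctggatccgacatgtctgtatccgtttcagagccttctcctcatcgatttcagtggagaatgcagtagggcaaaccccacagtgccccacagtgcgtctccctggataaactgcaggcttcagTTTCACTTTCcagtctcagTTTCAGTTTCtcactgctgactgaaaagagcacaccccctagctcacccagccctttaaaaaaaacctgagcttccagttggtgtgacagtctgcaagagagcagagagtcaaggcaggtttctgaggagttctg
Rsad2: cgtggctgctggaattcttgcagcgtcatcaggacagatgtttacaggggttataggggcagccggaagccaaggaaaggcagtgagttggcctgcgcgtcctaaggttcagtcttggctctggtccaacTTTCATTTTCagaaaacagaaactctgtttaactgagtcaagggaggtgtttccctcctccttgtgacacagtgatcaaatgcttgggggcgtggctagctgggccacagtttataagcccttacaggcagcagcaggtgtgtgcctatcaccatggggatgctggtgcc
Such a match occurs in 1131 of 32851 promoters of this length (3.44%). Counted by gene, in any of its promoters, it occurs in 1079 of 27025 genes (3.99%). It occurs in 16 of the 26 type I interferon genes with a promoter in the table (61.5%), in 11 of 21 interferon-gamma-induced genes (52.4%) and in 1 of 12 MHC class II genes (8.33%). Ifit2, Cmpk2, Irf7, Isg20, Slfn4 and Oasl1, all past 1.5-fold, had none of these letters in the window, while Oas1a (log2 0.10) and Bst2 (0.12) had 2 matches each. A match is a description of the letters and not a bound site.

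Across cells, the interferon share was higher in CEP at its median and both quartiles. The type I interferon list took a median of 0.803% of the UMIs of a CEP monocyte and 0.625% of a Vehicle monocyte. The lower quartile was 0.446% in CEP and 0.398% in Vehicle, and the upper quartile 1.26% in CEP and 0.958% in Vehicle. It reached at least 2% in 30 CEP cells (18.3%, interval 12.7 to 25.1%) and in 8 Vehicle cells (4.21%, 1.84 to 8.13%). It reached at least 1% in 63 CEP cells (38.4%, 30.9 to 46.3%) and in 43 Vehicle cells (22.6%, 16.9 to 29.2%). These limits were set after the data were seen and cut a continuous range. With each cell thinned to 3000 UMIs, which left out 14 CEP and 5 Vehicle cells, 27 of 150 CEP monocytes (18%) and 7 of 185 Vehicle monocytes (3.78%) were at or above 2%. Among C1q macrophages thinned in the same way, 0.688% in CEP and 0.499% in Vehicle were, and among neutrophils 1.82% in CEP and 4.45% in Vehicle. Cells this rich in interferon RNA were thus rare among macrophages of either library.

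The cells at or above 2% held 44.8% of all the list's UMIs in CEP monocytes and 12.9% in Vehicle monocytes, at pooled levels of 2.83% and 2.61%. Their median depth was 5338 UMIs in CEP and 6199.5 in Vehicle, and they held a median of 5.5 Ly6c2 UMIs in CEP and 3 in Vehicle. Along the Ly6c2 ranges the list took 0.757, 0.968 and 1.27% of UMIs in CEP and 0.587, 0.784 and 0.789% in Vehicle. Cells are not tied to animals here, so whether the 30 cells came from few or many mice cannot be told apart.

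**Figure D5:**
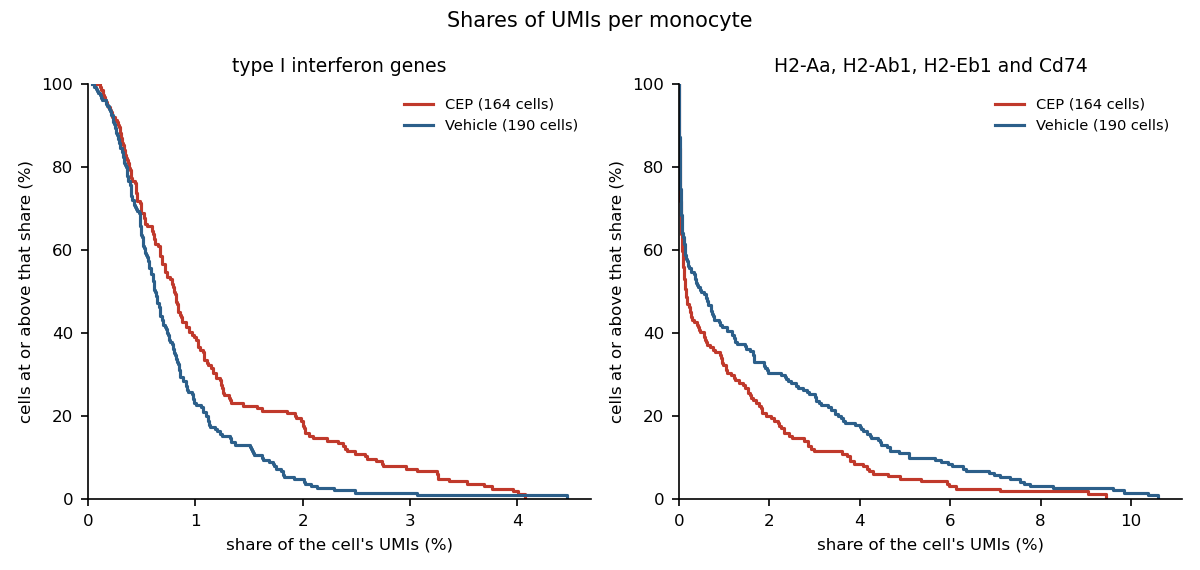
Percent of monocytes (y axis) at or above a given share of UMIs (x axis, percent of the cell's UMIs) in the type I interferon list (left) and in H2-Aa, H2-Ab1, H2-Eb1 and Cd74 (right), for 164 CEP (red) and 190 Vehicle (blue) cells. At 2% in the interferon list stand 18.3% of CEP and 4.21% of Vehicle cells, and at 3% in MHC class II 11% of CEP and 24.7% of Vehicle cells.

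Genes induced by interferon gamma lay close to 0 as a list. This cytokine of T and NK cells induces guanylate-binding proteins, chemokines and antigen presentation. Of 32 measured, 25 passed the filter, with a median log2 ratio of -0.08, 1 gene past 1.5-fold higher and 3 lower, where 3.92% of all genes were higher and 4.42% lower. Of the 25, 9 were above and 16 below 0. Cxcl10, a chemokine that draws T cells and is also induced by type I interferon, was the higher one, at 284 CPM in CEP and 159 CPM in Vehicle (0.83, interval 0.58 to 1.09). Its ratio was -0.36 with at least 2 Ly6c2 and 3 Plac8 UMIs required, and 94 of its 300 CEP UMIs and 63 of its 212 Vehicle UMIs came from 1 cell each. Cxcl9 was at 18 CPM in CEP and 41.3 CPM in Vehicle (-1.18, from 19 and 55 UMIs), Nos2 (inducible nitric oxide synthase) at 57.7 CPM in CEP and 106 CPM in Vehicle (-0.87), and Gbp2 at 179 CPM in CEP and 279 CPM in Vehicle (-0.64). Socs1, a feedback inhibitor of cytokine signalling, was at 153 CPM in CEP and 213 CPM in Vehicle (-0.47). Cd274, which encodes the checkpoint ligand PD-L1, was equal at 215 CPM in CEP and 214 CPM in Vehicle. In macrophages and in neutrophils the list had a lower median, -0.42 in each.

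MHC class II genes were lower in CEP monocytes. Their products present peptides to CD4 T cells. Of 15 measured, 11 passed the filter and 10 had a ratio below 0, with a median of -0.36. H2-Aa (chr17:34282744-34287823, minus strand) was at 2511 CPM in CEP and 3704 CPM in Vehicle monocytes; the log2 ratio was -0.56 (-0.63 to -0.49). H2-Ab1 was at 2057 CPM in CEP and 2914 CPM in Vehicle (-0.50), H2-Eb1 at 1353 CPM in CEP and 1731 CPM in Vehicle (-0.36), and the invariant chain Cd74 at 6413 CPM in CEP and 8687 CPM in Vehicle (-0.44, interval -0.48 to -0.39). The peptide-loading genes H2-DMb1, at 136 CPM in CEP and 210 CPM in Vehicle (-0.62), and H2-DMa, at 466 CPM in CEP and 599 CPM in Vehicle (-0.36), went the same way. Only H2-DMb1 was past 1.5-fold lower, as were 4.42% of all genes. Ctsz, a lysosomal protease on the list, had a ratio of 0.07.

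The MHC class II difference was also one of cells. The 4 main genes made up at least 3% of UMIs in 18 CEP cells (11%, interval 6.64 to 16.8%) and in 47 Vehicle cells (24.7%, 18.8 to 31.5%). After thinning these were 20 of 150 CEP cells (13.3%) and 45 of 185 Vehicle cells (24.3%). At least 1% was reached by 52 CEP cells (31.7%) and 78 Vehicle cells (41.1%), with intervals that overlap. Within the high range of the cut given above, H2-Aa was at 7464 CPM in CEP and 9335 CPM in Vehicle. Macrophages had a like median, -0.26, while neutrophils had 0.54, with Cd74 at 2075 CPM in CEP and 1313 CPM in Vehicle neutrophils. Genes of monocyte-derived dendritic cells had a median of -0.40 over 8 tested, of which 6 are MHC class II genes; Itgax was at 95.6 CPM in CEP and 80.4 CPM in Vehicle (0.25). MHC class I genes were close to equal, with a median of -0.09 over 22 genes. None was past 1.5-fold, where 3.92% of all genes were higher and 4.42% lower. H2-D1 was at 2398 CPM in CEP and 2469 CPM in Vehicle, and B2m at 1939 CPM in CEP and 2077 CPM in Vehicle.

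Chemokine genes went both ways. Of 20 measured, 17 passed the filter, with a median of 0.11, and 4 were past 1.5-fold higher and 5 past 1.5-fold lower, against 3.92% and 4.42% of all genes. Among ligands of CCR2, Ccl7 was at 85.1 CPM in CEP and 26.3 CPM in Vehicle (1.68, interval 1.12 to 2.3), from 24 and 21 cells. Ccl2 was at 217 CPM in CEP and 145 CPM in Vehicle (0.58), and Ccl12 at 61.5 CPM in CEP and 104 CPM in Vehicle (-0.75). Ligands of the same receptor thus lay on both sides. Ccl8 was at 65.3 CPM in CEP and 29.3 CPM in Vehicle (1.15), and Cxcl1, which draws neutrophils, at 84.2 CPM in CEP and 32.3 CPM in Vehicle (1.37, from 13 and 9 cells). The CC chemokines Ccl3, Ccl4 and Ccl5 were lower. Ccl3 was at 42.6 CPM in CEP and 101 CPM in Vehicle (-1.23), Ccl4 at 257 CPM in CEP and 401 CPM in Vehicle (-0.64), and Ccl5 at 96.5 CPM in CEP and 205 CPM in Vehicle (-1.08). Ccl3 had a ratio of 0.29 after thinning, and 150 of the 273 Vehicle UMIs of Ccl5 came from 1 cell, as did 53 of its 102 CEP UMIs. Ratios and list medians after thinning, here and below, come from the 107 CEP and 138 Vehicle cells that met the rule again on thinned counts. Their members thus differ as well as their depth. Ccl24 was at 875 CPM in CEP and 651 CPM in Vehicle (0.43), and Ccl6 at 866 CPM in CEP and 658 CPM in Vehicle (0.40).

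Interleukin 1 beta, the main inflammatory cytokine of these cells, was lower in CEP. Il1b (chr2:129364570-129371139, minus strand) was at 2931 CPM in CEP and 4302 CPM in Vehicle monocytes, a log2 ratio of -0.55 (-0.62 to -0.49), against -0.16 in macrophages. The list of interleukin 1 and inflammasome genes, which includes Il1b, had a median of 0.05 over 15 genes, with 8 above and 7 below 0, and a median of -0.05 without each gene's richest cell. Il1a was at 208 CPM in CEP and 170 CPM in Vehicle (0.29), and the receptor antagonist Il1rn at 366 CPM in CEP and 324 CPM in Vehicle (0.18). Naip5, a sensor of bacterial proteins, was at 15.1 CPM in CEP and 26.3 CPM in Vehicle (-0.77, interval -1.75 to 0.10), and Pycard, the inflammasome adaptor, at 251 CPM in CEP and 309 CPM in Vehicle (-0.30).

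For the pathway named in the series title, target genes were mostly lower in CEP and pathway members mostly higher, by small amounts. NF-kB target and feedback genes had a median of -0.11 over 27 tested of 30 (-0.34 after thinning), with 9 above and 18 below 0, and with 2 past 1.5-fold higher (Cxcl1 and Tnf) and 4 lower (Ccl3, Ccl5, Relb and Ccl4), where 3.92% of all genes were higher and 4.42% lower. Cxcl2 was at 1231 CPM in CEP and 1683 CPM in Vehicle (-0.45). Its ratio was -0.011 after thinning, and a Cxcl2 UMI was present in 64.0% of CEP and 52.1% of Vehicle monocytes. Ptgs2 (cyclooxygenase 2) was at 259 CPM in CEP and 331 CPM in Vehicle (-0.35). Nfkbia, the inhibitor that NF-kB itself induces, was at 1055 CPM in CEP and 1004 CPM in Vehicle (0.07). Tnf was sparse, with 39 UMIs in CEP and 26 in Vehicle. Of 14 axis genes, 10 passed, with a median of 0.10 (0.37 after thinning) and with 8 above and 2 below 0. Relb, a subunit of NF-kB, was at 21.8 CPM in CEP and 39.8 CPM in Vehicle (-0.85), Ikbkb, a kinase that releases NF-kB, at 113 CPM in CEP and 90.9 CPM in Vehicle (0.31), and Sqstm1 at 495 CPM in CEP and 375 CPM in Vehicle (0.40). Chuk, the other kinase, had a ratio of 0.65, and -0.038 with the stricter marker limits. Parp1, the DNA-damage enzyme of the title, was at 48.3 CPM in CEP and 42.1 CPM in Vehicle monocytes; the log2 ratio was 0.20 (-0.38 to 0.77).

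The genes furthest below Vehicle came from few cells. All 635 Camp UMIs, all 1098 Ngp UMIs and 274 of 276 Ltf UMIs of Vehicle monocytes were in 1 cell of 15292 UMIs. CEP monocytes held 0 Camp, 1 Ngp and 0 Ltf UMIs. These genes encode granule proteins of maturing neutrophils. That cell also held 1052 of 1688 S100a8 UMIs, 2062 of 2623 S100a9 UMIs and 388 of 417 Lcn2 UMIs, with 98 Lyz2 UMIs but 1 of Ly6c2 and 3 of Plac8. S100a9, an alarmin of neutrophils and monocytes, was at 295 CPM in CEP and 1970 CPM in Vehicle (-2.74), and -0.92 without each library's richest cell. S100a8 was at 325 CPM in CEP and 1268 CPM in Vehicle (-1.96), and -0.85 without it. The list of neutrophil-like monocyte and progenitor genes had a median of -1.64 over 13 tested of 20, and -0.35 without the richest cells. Members such as Camp passed the filter on Vehicle UMIs alone, so both medians are partly set by the filter. At least 20 UMIs of S100a8 and S100a9 were seen in 6 CEP and 11 Vehicle monocytes.

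Single cells also carried other programmes, and these sets of cells overlapped in part. Genes of plasmacytoid dendritic cells, such as Siglech, Ccr9 and Klk1, reached 10 UMIs in 1 CEP and 2 Vehicle cells, and Klk1 (10 UMIs in CEP and 42 in Vehicle) came from those cells alone. Progenitor granule genes (Mpo, Elane, Prtn3 and Ctsg) reached 10 UMIs in 2 CEP and 4 Vehicle cells. At least 20 cell cycle UMIs were found in 1 CEP and 7 Vehicle monocytes (0.610% and 3.68%, with intervals up to 3.35% and from 1.49%). The CEP cell (166 cell cycle UMIs) also carried progenitor granule genes. The 7 Vehicle cells included the granule cell described above (164 cell cycle UMIs) and progenitor gene cells with 159 and 231. Another of them, with 110, had a high doublet score. Cell cycle genes had a median of -0.95 over 9 tested of 22, with 6 past 1.5-fold lower, as were 4.42% of all genes. Ube2c, which helps drive exit from mitosis, was at 13.2 CPM in CEP and 88.6 CPM in Vehicle (-2.70, from 14 and 118 UMIs). Birc5 and Top2a had ratios of -2.22 and -1.73 and Hmgb2 -0.86. After thinning, which also dropped members that no longer met the rule, the list's median was -0.16 and the ratio of Birc5 was 0.81. Without each gene's richest cell the list's median was -1.45. In C1q macrophages the list's median was -0.05.

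Of the remaining genes with the largest ratios, several had few counts. Higher in CEP were Pgf (placental growth factor, 79.5 CPM in CEP and 23.3 CPM in Vehicle, 1.76), Sphk1 (sphingosine kinase 1, 32.2 CPM in CEP and 12 CPM in Vehicle, 1.40), Mid1ip1 (1.21) and Ranbp3 (1.19). Ace, a marker of patrolling monocytes, was at 36.0 CPM in CEP and 15.8 CPM in Vehicle (1.17, and 0.78 without the richest cells). Hspa1b, a heat-shock protein, was at 146 CPM in CEP and 54.1 CPM in Vehicle (1.42), with 76 of its 154 CEP UMIs in 1 cell. Mmp12 was at 291 CPM in CEP and 121 CPM in Vehicle (1.27) and Mmp13 at 55.8 CPM in CEP and 18 CPM in Vehicle (1.61), with 154 of 308 and 36 of 59 CEP UMIs in 1 cell, and their ratios without the richest cells were 0.57 and 0.76. Mmp13 was at -1.86 with the stricter marker limits. Lower in CEP were Vps72, a subunit of chromatin-remodelling complexes, at 10.4 CPM in CEP and 36.0 CPM in Vehicle (-1.74, in 11 and 43 cells), Mis18a (-1.68), Plscr1 (13.2 CPM in CEP and 43.6 CPM in Vehicle, -1.68), Wfdc21 (-1.64) and Serpinb1a (-1.63, with 39 of 60 Vehicle UMIs in 1 cell). Plscr1, a phospholipid scramblase, is itself induced by interferon, yet was found in 13 CEP and 37 Vehicle cells.

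Genes that define these cells differed little between the libraries. The 23 classical monocyte genes had a median of -0.08 and 1 past 1.5-fold lower, where 4.42% of all genes were. That gene was Cd177, whose ratio of -0.69 turned to 0.41 without the richest cells. Rhov, which regulates cell shape and was among the genes highest over macrophages, was at 152 CPM in CEP and 79.6 CPM in Vehicle (0.93, interval 0.57 to 1.30). Lrg1, a secreted glycoprotein, was at 88.9 CPM in CEP and 176 CPM in Vehicle (-0.98, interval -1.34 to -0.63). Non-classical genes had a median of 0.22 over 11 genes and macrophage maturation genes 0.14 over 19, of which Ctsd, a lysosomal protease, was past 1.5-fold higher at 577 CPM in CEP and 376 CPM in Vehicle (0.62). Transcription factors had a median of 0.08 over 29 genes. Cebpb was equal at 4605 CPM in CEP and 4596 CPM in Vehicle, while Cebpd was at 48.3 CPM in CEP and 92.4 CPM in Vehicle (-0.93).

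Lists of tumour-promoting and other genes likewise had medians close to 0, while single members differed more. The suppressive and tissue-remodelling list had a median of 0.03 over 20 genes, from -0.87 (Nos2) to 1.27 (Mmp12). Past 1.5-fold, 1 was higher and 1 lower, where 3.92% and 4.42% of all genes were. Arg1, which depletes arginine, was at 858 CPM in CEP and 807 CPM in Vehicle. Tgfbi was at 1873 CPM in CEP and 1778 CPM in Vehicle, and Vegfa at 667 CPM in CEP and 578 CPM in Vehicle. Spp1 was at 623 CPM in CEP and 449 CPM in Vehicle (0.47). Lipid handling genes had a median of 0.06 over 11, with the fatty acid carrier Fabp5 at 147 CPM in CEP and 75.8 CPM in Vehicle (0.95) and Apoe lower (-0.40). Fc and complement receptor genes had a median of -0.04 over 20, with Cd300a, an inhibitory receptor, at 77.6 CPM in CEP and 128 CPM in Vehicle (-0.71). Adhesion and migration genes had 0.06 over 22 (1 past 1.5-fold higher, Cx3cr1) and Schlafen and Ifitm genes 0.09 over 9 (2 higher, Slfn4 and Slfn8). S100 and annexin genes had -0.03 over 17 (2 lower, S100a8 and S100a9), and integrated stress and antioxidant genes -0.04 over 14 (1 higher, Ddit3). No member was past 1.5-fold among the tested genes of coagulation (median 0.00 over 10), C-type lectin receptors (0.03 over 11) or Toll-like receptors (-0.04 over 9). The same held for the Ms4a family (-0.17 over 7), glycolysis and hypoxia (0.06 over 25) and haem and iron handling (0.05 over 8). Over all genes 3.92% were past 1.5-fold higher and 4.42% lower, so having none in lists this short lies near that share. Cd14, the co-receptor for bacterial lipopolysaccharide, was at 2764 CPM in CEP and 3356 CPM in Vehicle (-0.28).

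Signs of handling and of other cells were measured beside these results, and their part in them was not tested. Immediate early and heat-shock genes had a median of 0.21 in monocytes and 0.13 in macrophages, and mitochondrially encoded genes 0.26 in monocytes and 0.20 in macrophages. All 5 markers of red blood cells were at 0 in both libraries. Of 11 T cell markers, 7 in CEP and 8 in Vehicle were at 0, among them Cd3d, Cd3e and Cd3g, as the rule required, and Trac; the list summed to 87.0 CPM in CEP and 51.1 CPM in Vehicle. Of 7 fibroblast and mural markers, 5 in CEP and 7 in Vehicle were at 0. Epithelial markers summed to 63.4 CPM in CEP and 31.5 CPM in Vehicle, and at most 0.113% of a cell's UMIs in CEP and 0.0792% in Vehicle. NK cell markers summed to 65.3 CPM in CEP and 18.8 CPM in Vehicle, with Gzma, Prf1 and Eomes at 0 in both. Markers of conventional dendritic cells summed to 88.0 CPM in CEP and 58.6 CPM in Vehicle, with Flt3, which the rule barred, and Zbtb46 at 0 in both. Neutrophil markers summed to 1890 CPM in CEP and 4675 CPM in Vehicle, a total that holds the cell described above, and C1q macrophage markers to 3006 CPM in CEP and 3716 CPM in Vehicle. A high doublet score was given to 3 CEP monocytes (1.83%) and 4 Vehicle monocytes (2.11%).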

How the data were processed

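Single-cell RNA was counted by the submitters in 2 libraries with Cell Ranger 5.0.1 on mm10, per the submitters' processing notes; the deposited matrix header names cellranger 7.1.0. The deposited values are raw UMI counts for 32285 gene models per cell barcode, with no normalization. Whether intronic reads were counted is not stated. About 30000 cells were loaded at over 95% CD45 purity, per the labels' protocols. No column of values was left unused (0).

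Of 19610 deposited barcodes, 19476 passed limits of 200 detected genes or more and 15% mitochondrial UMIs or less. Monocytes and the other classes were set by the UMI limits given above. Counts were summed over the cells of a class and library and divided by their total, as CPM. Log2 ratios used a prior of 0.5 UMIs, and genes with at least 50 UMIs over both libraries entered (4999). With 1 library per group there is no test. Intervals are exact Poisson (levels), exact Clopper-Pearson binomial (shares) or exact conditional binomial (ratios of levels) at 95%; ratios of shares have log-normal intervals. A count of 0 allows up to 3 UMIs. Shares of cells were repeated after thinning each cell to 3000 UMIs. Shares of monocytes with a UMI kept the same members where deep enough (150 CEP and 185 Vehicle cells). Monocyte shares of a library, ratios and list medians after thinning applied the rule again to thinned counts. That left 107 CEP and 138 Vehicle monocytes, so members changed as well as depth. Scrublet in scanpy 1.11.5 called 1 CEP and 0 Vehicle doublets, so the highest 8% of scores were used as an alternative and none were removed. Intervals cover counting error only.

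Named genes were the 15 highest and 15 lowest past 1.5-fold, 20 each highest over C1q macrophages and over neutrophils, the given markers, and up to 6 per list; other genes named are list members or were chosen after their values were seen. The members and the 30 gene lists were chosen with earlier results of these data known. Python 3.11.15, numpy 2.4.6, scipy 1.17.1, pandas 2.3.3 and matplotlib 3.10.9 were used. The ratio computation was tested on simulated data. Summed counts were drawn per gene from a Poisson distribution without cells, so the gathering of UMIs in few cells was not covered by that test.

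A few genes are not reported here.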

Additional observations from a re-analysis of the deposited data

Results flagged for a closer look

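The log2 ratio of CEP over Vehicle pointed in opposite directions in monocytes and in another class of the same libraries for several lists and genes. None of these differences between classes was tested, since each group is 1 library. Type I interferon genes had a median of 0.34 in monocytes, against -0.22 in C1q macrophages and -0.12 in neutrophils, and Rsad2 had 1.27 in monocytes against -0.59 in macrophages.

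The granule and progenitor list had a median of -1.64 in monocytes, which the filter partly set, and 0.56 in macrophages. S100a9 had -2.74 in monocytes against 0.62 in macrophages, S100a8 -1.96 against 0.66, and Serpinb1a -1.63 against 1.42. In Vehicle monocytes 1 cell held most UMIs of these 3 genes. Against neutrophils, MHC class II genes had -0.36 in monocytes and 0.54 in neutrophils, and the dendritic cell list that shares 6 of its 8 tested genes with them had -0.40 in monocytes and 0.64 in neutrophils. NF-kB target genes had -0.11 in monocytes and 0.12 in neutrophils, and Ms4a genes -0.17 in monocytes and 0.33 in neutrophils. Klk1 was at -1.68 in monocytes on the UMIs of 3 cells, and at 18.6 CPM in CEP neutrophils with no UMI in Vehicle neutrophils.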

How the results depend on the processing

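No paired analysis was possible because each group is 1 library and its cells carry no animal number. The median of the type I interferon list stayed between 0.30 and 0.42 and that of MHC class II genes between -0.46 and -0.26 over 13 alternatives each, and the log2 ratio of the monocyte share between -0.35 and -0.02 over 7. Counts of genes past 1.5-fold depended on the filter and depth. They were 111 higher and 109 lower in cells thinned to 3000 UMIs, 544 and 572 with at least 20 UMIs, 2371 and 2319 with at least 1 UMI, 25 and 26 with at least 200 UMIs, and 749 and 713 with a lower fold limit. The median of the granule and progenitor list (-1.64) was -0.40 with at least 2 Ly6c2 and 3 Plac8 UMIs, -0.96 after thinning, -0.77, -0.73 and -2.74 with filters of 20, 1 and 200 UMIs, -0.51 without cells carrying granule or plasmacytoid dendritic cell genes, and -0.35 without each gene's richest cell. The last 2 alternatives were chosen after seeing the data. Macrophage maturation genes turned to -0.061 and Schlafen and Ifitm genes moved to 0.36 with the stricter marker limits. Dendritic cell genes were at -0.65 after thinning, -0.64 from the mean of each cell's CPM and -0.11 with at least 1 UMI, and cell cycle genes at -0.16 after thinning. With stricter marker limits Mmp13 turned to -1.86, Cxcl10 to -0.36, Chuk to -0.038, Pglyrp1 to 1.06, Ngp to 2.05, and Camp, Ltf and Cd177 to 0.46. After thinning, with the rule met again by 107 CEP and 138 Vehicle cells, Birc5 turned to 0.81, Klk1 to 1.95, Dmkn to 0.10, Ccl3 to 0.29 and Hspa1a to -0.042. Without the granule and plasmacytoid cells Camp and Klk1 turned to 0.30, Ngp to 1.88, Cd177 to 0.59 and Pglyrp1 to 1.14. Without the richest cells Camp and Ngp turned to 0.33, Cd177 to 0.41 and Pglyrp1 to 0.90. Values of Camp, Ngp, Ltf and Klk1 in these settings rest on almost no UMIs and on the prior. The causes were not tested. Differences between animals, and differences in the share of monocytes smaller than the intervals given, cannot be seen in these data.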

Other observations

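Some chemokine and growth factor genes below the filter of 50 UMIs were uneven between the libraries. Ccl17, a ligand of CCR4 made by dendritic cells, had 48 UMIs in CEP monocytes and 0 in Vehicle monocytes, and Mgl2, a lectin of dendritic cells and macrophages, had 32 in CEP and 3 in Vehicle. Ppbp, a platelet chemokine, had 1 UMI in CEP and 45 in Vehicle. These genes were chosen after their values were seen and no ratio is given.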
